A study of Homo sapiens with 4 samples.

Results

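The 10 genes described here belong to the BCL2 family, whose proteins decide at the mitochondrial outer membrane whether a cell starts apoptosis. They are the rows of the deposited expression table with the symbols BCL2, BCL2L1, MCL1, BAK1, BID, BCL2L11, BAD, BIK, PMAIP1 and BMF, 10 of 23143 gene symbols, and all 10 were found. Polyadenylated RNA was sequenced from A549 cells, an established human lung adenocarcinoma line, in 4 libraries. In the 2 DOX libraries, cells given doxycycline overexpressed GATA4, a zinc finger transcription factor. In the 2 noDOX libraries, cells had GATA4 at its normal level, and the series' design text names a vehicle for them. The labels give no dose, no time, no allele and no statement that the inducible line is 1 clone, and no library of doxycycline-treated cells without the inducible gene was analysed here, so doxycycline and extra GATA4 cannot be told apart.

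Apoptosis through mitochondria is set by 3 kinds of BCL2 family protein. Guardians such as BCL2, Bcl-xL (from BCL2L1) and MCL1 hold back the pore-forming effectors BAK1 and BAX. BH3-only proteins sense stress and either block the guardians or activate the effectors directly. Carcinoma cells of the lung often depend on Bcl-xL and MCL1 for survival, and in rodent heart muscle cells GATA4 has been described as an activator of the Bcl-x gene. Many of these proteins are controlled after translation, by phosphorylation, cleavage or degradation, which RNA levels do not show.

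GATA4 itself was at 75.0 and 48.0 FPKM in DOX libraries 1 and 2, against 12.2 and 14.5 FPKM in noDOX libraries 1 and 2, where FPKM counts fragments per unit of transcript length and of mapped fragments. Low values lay on steps that showed what 1 fragment was worth, and 1 fragment was worth most in DOX library 2. The depth these steps imply was 1.38 to 1.59 times as high in the other libraries, a ratio that may include scaling between libraries by the authors' software. All 7 epithelial and A549 markers, keratins 8 and 18 among them, were at 3.08 FPKM or more in every library. Their summed level was 10325 to 15644 FPKM in DOX and 5718 to 8969 FPKM in noDOX libraries, without overlap. All 4 alveolar type II and all 4 endothelial markers stayed under 1 FPKM. Of the fibroblast markers COL1A1 and COL3A1 reached 1 FPKM, 1 of them in every library, with a highest value of 8.46 FPKM. Of the blood markers only LYZ reached 1 FPKM, and it did so in every library, with a highest value of 3.71 FPKM. DCN and CD3E were listed at 0 in all. The summed level of the 5 fibroblast markers was 2.04 to 2.96 FPKM in DOX and 3.93 to 9.61 FPKM in noDOX libraries, also without overlap, and the part of either shift in the results was not tested. The libraries also split across the groups. DOX library 2 and noDOX library 1 had higher values of short transcripts than their replicates, with median log2 differences of 0.36 and 0.49 in the 2922 genes with the shortest transcripts and -0.24 and -0.28 in the 2922 with the longest. Between DOX and noDOX the same medians were -0.14 and 0.07.

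None of the family members passed the test between DOX and noDOX, and neither did GATA4 itself (log2 difference 2.09, limma, adjusted p = 0.289). In such bulk RNA, fewer cells with a transcript and less of it per cell cannot be told apart. Differences were tested by limma on log2(FPKM + 1) over the 12504 genes that averaged 1 FPKM or more, and 9 of the 10 members reached that mean. BCL2 did not and was not tested. Of the 9, 0 were called higher and 0 lower at an adjusted p under 0.05, where 0.024% and 0.064% of all tested genes were called, 0.088% in all. At an unadjusted p under 0.05 there were 2, BCL2L1 and BMF, both with lower DOX values, against 6.34% of all tested genes in either direction and 3.52% in this one. Each DOX library was below each noDOX library for BCL2L1, BMF and BCL2L11 (3 of 9, against 17.3% of all tested genes) and above for BAK1 and BIK (2 of 9, against 14.7%, and 32% in either direction). When libraries were scaled to equal sums outside small RNA genes, which moved the median log2 difference of all genes by 0.12, BCL2L1 and BMF stayed below. For BCL2L1 the margin was then very narrow, between DOX library 1 and noDOX library 1. BAK1, BIK and BCL2L11 then overlapped, while BAD lay above and PMAIP1 below. That made 3 of 9 below and 1 above. The shares of genes at 1 FPKM or more in both groups were then 9.05% and 11.9%. The median log2 difference of the 9 members was -0.19, beside -0.04 for all genes tested, and it was 0.02 without noDOX library 1 and 0.01 without DOX library 1. The smallest p that an exact permutation test allows here, with 2 libraries a group, is 0.333, so it was not used for single genes. The labels do not say that replicates came from separate cultures, so p-values reflect only how far these libraries differ among themselves, possibly for technical reasons.

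Among the 3 guardians described, BCL2L1 was the most abundant transcript and the one with the widest gap between groups. BCL2L1 encodes Bcl-xL, which binds BH3-only proteins and keeps BAX and BAK1 inactive, and by splicing also the shorter, proapoptotic Bcl-xS. It was at 106.8 and 106.2 FPKM in DOX libraries 1 and 2, against 169.8 and 233.5 FPKM in noDOX libraries 1 and 2. The DOX libraries were nearly equal and lay below both noDOX libraries, which differed from each other. The means were 106.5 ± 0.4 FPKM in DOX and 201.7 ± 45.0 FPKM in noDOX libraries (SD, n = 2 each), a DOX-to-noDOX ratio of 0.528. The log2 difference was -0.90 with a standard error of 0.31 and a 95% interval of -1.72 to -0.08, and it missed the threshold (limma, adjusted p = 0.747). Between the libraries alike in the balance of short and long transcripts, the ratio was 0.625 for DOX 2 over noDOX 1 and 0.457 for DOX 1 over noDOX 2. The gene-level value does not separate the Bcl-xL and Bcl-xS forms. GENCODE places 1224 exon bases of the antisense gene ABALON over BCL2L1, and no source used here says whether strand was kept, so the value is uncertain to that extent.

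MCL1, a short-lived guardian that NOXA (the PMAIP1 product) marks for degradation, had almost the same level in all libraries. It was at 55.8 and 59.4 FPKM in the DOX libraries, against 60.0 and 57.9 FPKM in the noDOX libraries, and the groups overlapped. The log2 difference was -0.03 with a 95% interval of -0.64 to 0.58 (limma, adjusted p = 0.999), and its sign was positive, at 0.028 and 0.10, under the other scalings. BCL2, the founding guardian of the family, was hardly present, at 0.153 and 0.364 FPKM in the DOX libraries and 0.321 and 0.213 FPKM in the noDOX libraries. Its values overlapped and rested on few fragments, about 19 to 46 in DOX library 1 and 36 to 88 in noDOX library 1 depending on the transcript. BCL2L1 made up 65.6 and 64.0% of the summed FPKM of these 3 guardians in the DOX libraries, against 73.8 and 80.1% in the noDOX libraries. The MCL1 share was 34.3 and 35.8% in DOX, against 26.1 and 19.8% in noDOX libraries. Neither share overlapped between the groups. BCL2 made up only 0.073 to 0.219%, so the MCL1 share was nearly the remainder of the BCL2L1 share and is no separate result. The sum itself was 163 and 166 FPKM in DOX, against 230 and 292 FPKM in noDOX libraries.

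The windows around the starts of BCL2L1 and BMF are shown because these were the 2 members with an unadjusted p under 0.05, both with lower DOX values. Each runs from 250 bases before to 50 bases after a RefSeq start, on the minus strand of GRCh38.p14, while the FPKM were made on hg19. Capitals mark a GATA motif (AGATAA or TGATAA, or the same with G as the last letter, on either strand), an NF-κB motif, an AP-1 motif (TGANTCA), a palindromic SMAD motif (GTCTAGAC) or a CRE (TGACGTCA), and no 2 matches overlapped.
BCL2L1 at chr20:31723914-31724213: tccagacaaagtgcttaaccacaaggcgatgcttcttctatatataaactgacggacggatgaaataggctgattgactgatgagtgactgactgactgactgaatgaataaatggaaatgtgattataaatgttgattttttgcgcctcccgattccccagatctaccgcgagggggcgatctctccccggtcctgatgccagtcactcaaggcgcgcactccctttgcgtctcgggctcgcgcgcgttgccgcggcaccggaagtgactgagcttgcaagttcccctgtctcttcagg
BCL2L1 at chr20:31722819-31723118: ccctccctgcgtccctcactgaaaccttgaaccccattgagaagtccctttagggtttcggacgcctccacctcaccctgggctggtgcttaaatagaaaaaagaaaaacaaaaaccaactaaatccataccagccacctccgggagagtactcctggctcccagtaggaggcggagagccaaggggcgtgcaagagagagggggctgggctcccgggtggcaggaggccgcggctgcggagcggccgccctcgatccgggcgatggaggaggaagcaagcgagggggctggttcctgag
BMF at chr15:40108830-40109129: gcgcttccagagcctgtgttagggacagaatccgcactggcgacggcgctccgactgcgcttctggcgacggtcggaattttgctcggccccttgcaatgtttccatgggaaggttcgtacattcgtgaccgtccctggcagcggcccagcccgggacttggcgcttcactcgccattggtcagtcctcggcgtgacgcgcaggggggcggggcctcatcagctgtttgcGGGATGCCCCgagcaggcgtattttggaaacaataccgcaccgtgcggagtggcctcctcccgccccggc
BMF at chr15:40106917-40107216: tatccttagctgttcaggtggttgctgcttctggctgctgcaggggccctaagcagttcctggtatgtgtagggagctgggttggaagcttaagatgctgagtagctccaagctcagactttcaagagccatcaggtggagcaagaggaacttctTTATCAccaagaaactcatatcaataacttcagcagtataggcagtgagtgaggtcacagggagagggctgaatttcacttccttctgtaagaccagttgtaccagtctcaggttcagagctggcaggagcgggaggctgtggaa
Neither BCL2L1 window held any of these letters. The BMF window at chr15:40108830-40109129 held an NF-κB match, GGGGCATCCC on the other strand, starting 20 bases before the start. That at chr15:40106917-40107216 held a GATA match, TGATAA on the other strand, starting 95 bases before the start. Over all 35116 windows in the table a GATA match was in 25.0% and an NF-κB match in 5.91%, against 7.71% for AP-1, 0.202% for the SMAD palindrome and 1.85% for the CRE. Of the 10 members 8 had a window, 15 windows in all, and the BMF matches were the only 2 among them. The GC content of the BCL2L1 windows was 52.0 and 61.3%, and of the BMF windows 65.0 and 50.3%, beside a median of 58.7% over all windows. No window was matched for MCL1 or BIK.

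BAK1, one of the effectors that form pores in the outer membrane, was at 10.99 and 10.98 FPKM in the DOX libraries, against 9.90 and 9.97 FPKM in the noDOX libraries. Replicates agreed closely, and each DOX value exceeded each noDOX value, with a ratio of the means of 1.11. The log2 difference of 0.13 had a 95% interval of -0.31 to 0.58 (limma, adjusted p = 0.999), wider than the spread between its own replicates because limma draws each gene's variance toward that of the other genes. GENCODE overlaps BAK1 with 91 exon bases of the pseudogene GGNBP1, which was at 0.115 FPKM or less in the table, and the processed pseudogenes BAK1P1 and BAK1P2 can share reads with it. BAX, the other main effector and not one of the 10, was at 435 and 359 FPKM in the DOX libraries, against 457 and 409 FPKM in the noDOX libraries, and overlapped.

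BMF had the lowest DOX-to-noDOX ratio of the 10 genes. Its product is a BH3-only protein that is held on the cytoskeleton until it is released to bind guardians. It was at 1.08 and 1.59 FPKM in the DOX libraries, against 2.49 and 3.53 FPKM in the noDOX libraries, and the groups did not overlap. The ratio of the means was 0.443, with 1.33 ± 0.36 FPKM in DOX and 3.01 ± 0.74 FPKM in noDOX libraries (SD, n = 2 each). The log2 difference was -0.78 (SE 0.25, 95% interval -1.45 to -0.11; limma, adjusted p = 0.693). It was -1.12 with a pseudocount of 0.1, since a pseudocount of 1 shrinks the difference of a gene this low. At the median length of its transcripts, about 24 and 23 fragments stood behind the DOX values of BMF and about 50 and 82 behind the noDOX values. In DOX library 1 this ran from about 13 to 202 depending on the transcript, so counting error can be large. BMF-AS1, on the other strand, covers 461 exon bases of BMF.

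BIK, a BH3-only protein of the endoplasmic reticulum, was at 2.35 and 1.81 FPKM in the DOX libraries, against 1.24 and 1.45 FPKM in the noDOX libraries. The DOX values were the higher ones without overlap, at a ratio of the means of 1.55. About 74 and 37 fragments stood behind the DOX values and about 35 and 47 behind the noDOX values, so counting error is large. The log2 difference was 0.39 (SE 0.22, 95% interval -0.20 to 0.98; limma, adjusted p = 0.971). BIK and BMF stood in opposite order in DOX and noDOX libraries. Within a library the ratio of BIK to BMF was 2.17 and 1.14 in the DOX libraries, against 0.498 and 0.409 in the noDOX libraries. The pair was picked after the values were seen. Since BIK lay above and BMF below without overlap, their ratio could not overlap and is no separate result.

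BCL2L11 encodes BIM, which binds all guardians and can activate the effectors. It was at 4.29 and 4.70 FPKM in the DOX libraries, against 5.40 and 5.17 FPKM in the noDOX libraries, without overlap. The gap was narrow, with a log2 difference of -0.19 and a 95% interval of -0.65 to 0.26 (limma, adjusted p = 0.999). On the other strand MIR4435-2HG covers 727 of its exon bases.

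BID and PMAIP1 varied more between replicates than between groups. BID, which caspase-8 cleaves to link death receptors to mitochondria, was at 8.64 and 14.9 FPKM in DOX libraries 1 and 2, against 20.2 and 10.5 FPKM in noDOX libraries 1 and 2. PMAIP1 encodes NOXA, a BH3-only protein that binds MCL1, and was at 4.87 and 7.15 FPKM in the DOX libraries, against 12.2 and 5.84 FPKM in the noDOX libraries. For both genes the groups overlapped, and DOX library 2 and noDOX library 1 held the higher value of their group. These are the libraries with higher values of short transcripts, and the part of that balance in the values of BID and PMAIP1 was not tested. The log2 differences were -0.33 with a 95% interval of -1.44 to 0.77 for BID and -0.46 with one of -1.49 to 0.57 for PMAIP1 (limma, adjusted p = 0.999 for each). Without noDOX library 1 they were 0.11 and 0.02. With a trend on transcript length removed from each library they were -0.27 and -0.37.

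BAD, a BH3-only protein that survival kinases inactivate by phosphorylation, was the most abundant BH3-only transcript. It was at 53.7 and 63.6 FPKM in the DOX libraries, against 61.0 and 45.2 FPKM in the noDOX libraries, and the groups overlapped. The log2 difference was 0.15 with a 95% interval of -0.58 to 0.89 (limma, adjusted p = 0.999), and it was -0.06 without noDOX library 2. BAD made up 71.7 and 67.8% of the summed FPKM of the 6 BH3-only members in the DOX libraries, against 59.5 and 63.1% in the noDOX libraries. That sum was 74.9 and 93.7 FPKM in the DOX libraries, against 102 and 71.7 FPKM in the noDOX libraries, with overlap. GPR137, on the other strand, covers 104 exon bases of BAD and was at 15.1 to 17.2 FPKM, so the BAD value is uncertain to that extent.

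**Figure D1:**
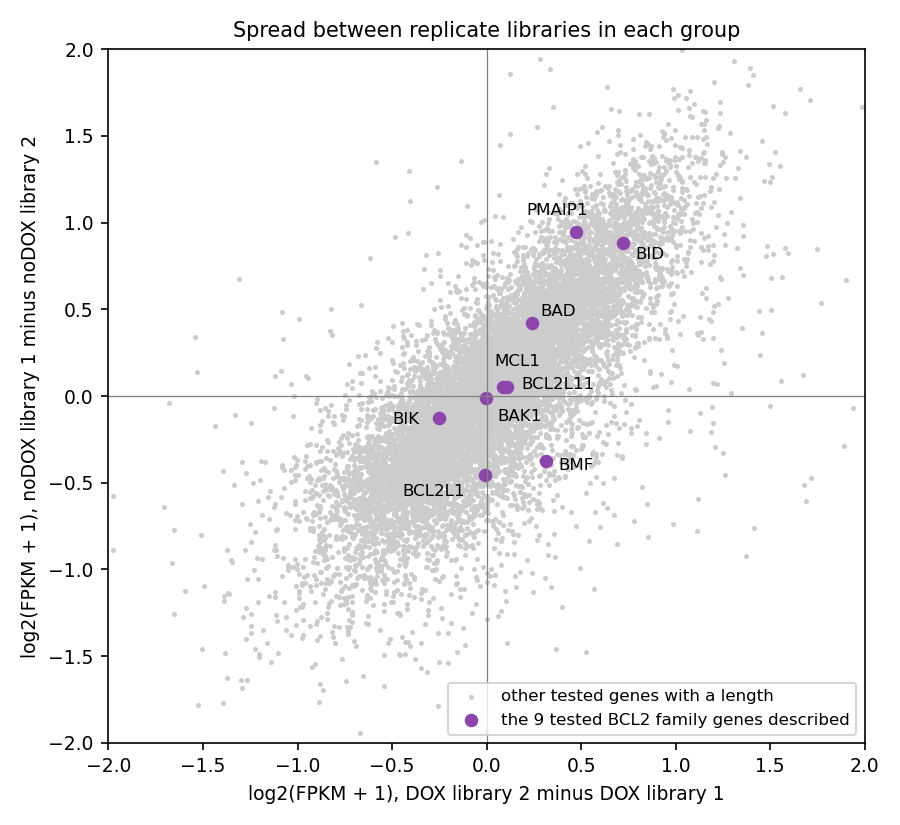
Log2(FPKM + 1) differences between replicates, DOX library 2 minus 1 on the horizontal and noDOX library 1 minus 2 on the vertical axis, for the 9 tested members (purple) and other tested genes (grey, 35 beyond the axes). PMAIP1 (0.47 and 0.95) and BID (0.72 and 0.89) lie at the upper right along the main axis of the grey points, and BCL2L1 (-0.01 and -0.46) and BMF (0.31 and -0.38) to its lower right.

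The order of levels was nearly the same in both groups. In the DOX libraries it ran BCL2L1, BAD, MCL1, BID, BAK1, PMAIP1, BCL2L11, BIK, BMF and BCL2, and in the noDOX libraries BCL2L1, MCL1, BAD, BID, BAK1, PMAIP1, BCL2L11, BMF, BIK and BCL2. In DOX libraries the neighbours BAD and MCL1, and BID and BAK1, overlapped. In noDOX libraries MCL1 and BAD, and BAK1 and PMAIP1, overlapped. All other neighbours were apart in both libraries of the group.

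Ratios of 2 transcripts within a library do not depend on how libraries were scaled, and these pairs were picked after the values were seen. They can still carry the balance of short and long transcripts, which differed between libraries, and its part was not tested. BCL2L1 to MCL1 was 1.91 and 1.79 in the DOX libraries, against 2.83 and 4.03 in the noDOX libraries. BCL2L1 to BAK1 was 9.71 and 9.67 in DOX, against 17.2 and 23.4 in noDOX libraries. Both ratios were lower in each DOX library than in either noDOX library. For BCL2L1 to BAK1 this follows from the single genes, of which BCL2L1 lay below and BAK1 above without overlap. MCL1 to PMAIP1, a guardian and its BH3-only partner, was 11.5 and 8.31 in DOX, against 4.92 and 9.91 in noDOX libraries, and overlapped. MCL1 to BAK1 was 5.08 and 5.41 in DOX, against 6.06 and 5.80 in noDOX libraries, without overlap. As MCL1 had almost the same level in all libraries, BCL2L1 to MCL1 and MCL1 to BAK1 largely restate BCL2L1 and BAK1.

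**Figure D2:**
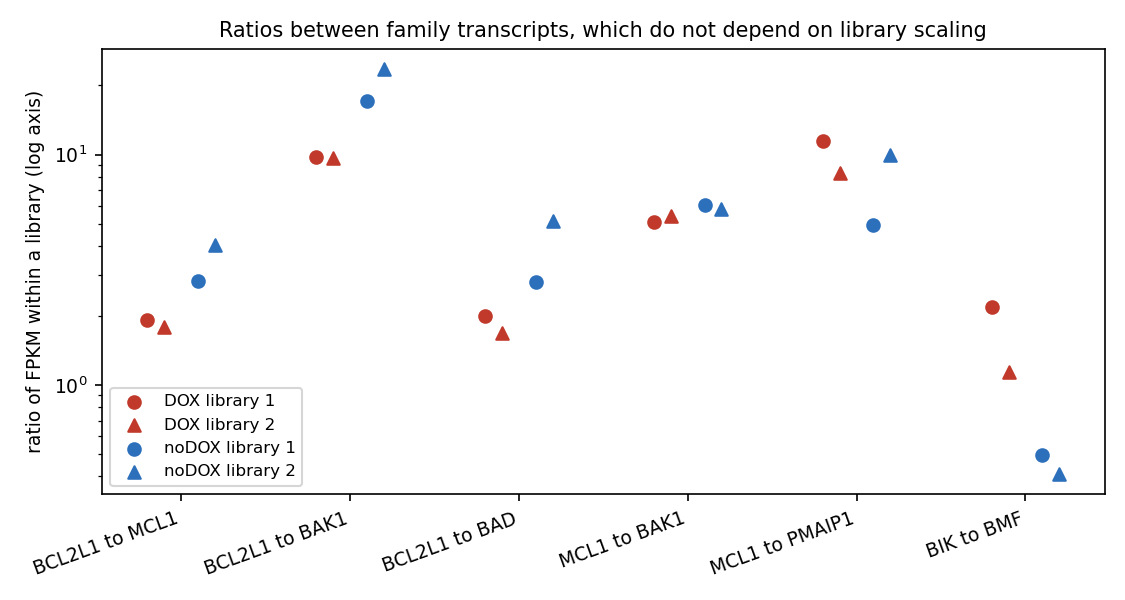
Ratio of the FPKM of 2 genes within each library (log axis), DOX libraries left of noDOX libraries. BCL2L1 to MCL1 was 1.79 to 1.91 in DOX and 2.83 to 4.03 in noDOX libraries, and BIK to BMF 1.14 to 2.17 in DOX and 0.409 to 0.498 in noDOX libraries.

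Of 24 BCL2 family genes, the 10 included, 20 were tested and 0 passed in either direction (limma). BCL2A1 and HRK averaged under 1 FPKM in the DOX libraries and reached the filter only through the noDOX libraries, so they are left out of the counts that follow. Of the other 18, 2 had an unadjusted p under 0.05 (limma), BCL2L1 and BMF, beside 685 of the 11990 genes at 1 FPKM or more in both groups. The log2 difference was negative for 15 and positive for 3, with a median of -0.19, where 55.5% of the 11990 genes at 1 FPKM or more in both groups were negative and the median was -0.04. With equal sums outside small RNA genes the split was 10 negative and 8 positive, beside 38.4% negative over those genes. In 5 of the 18 each DOX library was below each noDOX library and in 2 above, beside 16.6% and 14.6% of those genes. With equal sums outside small RNA genes it was 5 and 1, beside 9.05% and 11.9%. Of the genes below, only BCL2L1 and BMF were the same as before. BCL2L11, BBC3 and BNIP3L overlapped with equal sums, while PMAIP1, BNIP2 and BCL2L12 lay below. BCL2A1, a guardian known as an NF-κB target, was at 0.140 and 0.640 FPKM in the DOX libraries, against 1.80 and 3.12 FPKM in the noDOX libraries. The groups did not overlap, and the log2 difference was -1.31 (SE 0.33; limma, adjusted p = 0.568). BBC3 encodes PUMA, a BH3-only protein, and was at 16.6 and 12.0 FPKM in the DOX libraries, against 18.7 and 25.0 FPKM in the noDOX libraries, without overlap (limma, adjusted p = 0.902). HRK, another BH3-only gene, was at 0.827 and 1.11 FPKM in DOX, against 2.09 and 1.16 FPKM in noDOX libraries, and the groups were apart by a narrow margin.

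The guardian gene BCL2L2 was at 11.4 and 11.2 FPKM in DOX, against 13.7 and 9.71 FPKM in noDOX libraries, and the effector relative BOK at 11.5 and 11.4 FPKM in DOX, against 9.57 and 14.8 FPKM in noDOX libraries. Both overlapped, and BCL2L2 shares exon bases with its readthrough gene BCL2L2-PABPN1. BNIP3L, a mitophagy receptor, was at 16.0 and 14.6 FPKM in DOX, against 17.8 and 21.4 FPKM in noDOX libraries, without overlap (limma, adjusted p = 0.986). BNIP3, BNIP2, BCL2L12 and BCL2L13 overlapped, with log2 differences of -0.20, -0.48, -0.34 and -0.06. With equal sums outside small RNA genes BNIP3L overlapped instead, and BNIP2 and BCL2L12 lay below. With 1 library left out, those of BNIP2 ran from -0.78 to -0.19 and those of BCL2L12 from -0.64 to -0.04. BCL2L10, BCL2L14 and BCL2L15 had means under 1 FPKM and were not tested, with 0.0387 to 0.618 FPKM over all libraries.

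**Figure D3:**
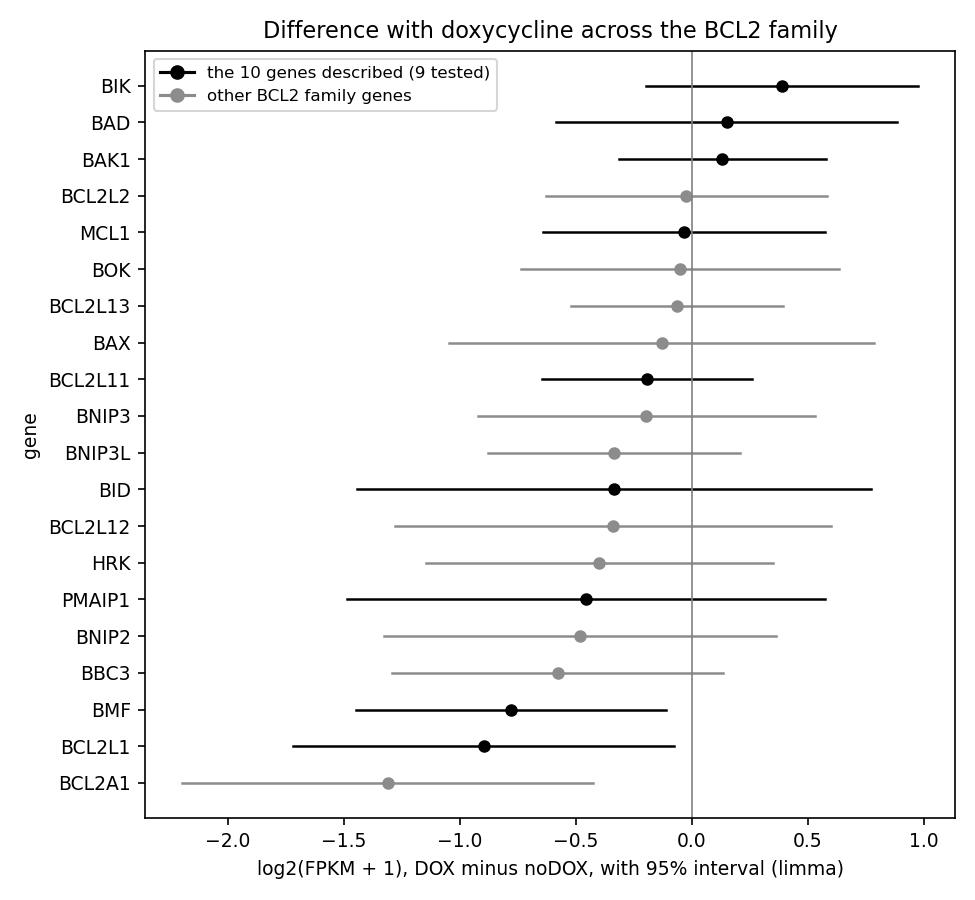
Difference in log2(FPKM + 1), DOX minus noDOX, with its 95% interval from limma for the 20 tested BCL2 family genes, black for the genes described and grey for the others. BCL2L1 (-0.90), BMF (-0.78) and BCL2A1 (-1.31) have intervals below 0 before adjustment and none passed after it, and BCL2A1, like HRK, was tested only because of its noDOX values.

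The machinery around the family was followed with 47 other genes, of which 46 were tested and 0 passed in either direction (limma). Of the 46, 1 had an unadjusted p under 0.05, beside 6.34% of all tested genes. The median log2 difference of the 46 was 0.02, beside -0.04 for all genes tested. BIRC7 and a death receptor gene averaged under 1 FPKM in 1 group and are left out of the counts of genes without overlap that follow. Each DOX library was above each noDOX library for 10 of the other 44 and below for 4, where 14.6% of all genes at 1 FPKM or more in both groups lay above and 16.6% below. With equal sums outside small RNA genes, 5 of the 44 lay above and 2 below, beside 11.9% and 9.05%. Of the 11 apoptosome and caspase genes 3 lay above and 0 below, and 3 and 0, not all the same genes, with equal sums. APAF1, the scaffold of the apoptosome, was at 3.93 and 2.99 FPKM in DOX, against 1.75 and 2.94 FPKM in noDOX libraries. It did not overlap between the groups, and CASP2 did (limma, adjusted p = 0.986 and 0.999). With equal sums APAF1 overlapped too. The log2 difference of APAF1 was 0.43, and 0.17 to 0.69 with 1 library left out.

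Among 9 genes for partners and regulators of BCL2 family proteins, 4 lay above and 0 below, and 2 and 0 with equal sums outside small RNA genes. The shares of all genes at 1 FPKM or more in both groups were 14.6% above and 16.6% below, and 11.9% and 9.05% with equal sums. VDAC1, a channel of the outer mitochondrial membrane, was at 385 and 382 FPKM in DOX, against 253 and 212 FPKM in noDOX libraries, a log2 difference of 0.72 (SE 0.32; limma, adjusted p = 0.875). FBXW7 and BTRC, substrate receptors of ubiquitin ligases that target MCL1 and other proteins, had log2 differences of 0.39 and 0.26. HUWE1, a ubiquitin ligase of MCL1, had one of 0.53, and its groups overlapped. With 1 library left out, FBXW7 ran from 0.17 to 0.62 and HUWE1 from 0.18 to 0.88.

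Of 6 inhibitor of apoptosis genes 0 lay above and 1 below, and 0 and 0 with equal sums outside small RNA genes. The shares of all genes at 1 FPKM or more in both groups were 14.6% above and 16.6% below, and 11.9% and 9.05% with equal sums. BIRC2, which encodes cIAP1, was at 13.0 and 13.6 FPKM in DOX, against 15.7 and 18.3 FPKM in noDOX libraries, without overlap, and BIRC7 was at 0.315 and 1.28 FPKM in DOX, against 1.72 and 2.07 FPKM in noDOX libraries. BIRC7 reached a mean of 1 FPKM only through the noDOX libraries. BIRC3 and BIRC6 overlapped, with log2 differences of -0.35 and 0.36. Of 11 death receptor genes, 2 lay above and 1 below, and 0 and 1 with equal sums, beside the same shares. The gene below was TNFRSF10D, and with equal sums it was TNFRSF1A instead. TNFRSF10D, a decoy receptor for TRAIL, was at 5.69 and 5.25 FPKM in DOX, against 7.43 and 7.34 FPKM in noDOX libraries (limma, adjusted p = 0.878). RIPK1, TNFRSF10A and TNFRSF1A had log2 differences of 0.19, 0.16 and -0.57. In the values as deposited TNFRSF1A overlapped, and its log2 difference ran from -1.01 to -0.12 with 1 library left out.

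Of 7 tested transcription factors that control BH3-only genes, 1 lay above and 2 below, and 0 and 1 with equal sums outside small RNA genes. The shares of all genes at 1 FPKM or more in both groups were 14.6% above and 16.6% below, and 11.9% and 9.05% with equal sums. BCL6, a transcriptional repressor, was at 3.06 and 3.88 FPKM in DOX, against 6.13 and 10.2 FPKM in noDOX libraries, and had the 1 unadjusted p under 0.05 among these 46 genes (log2 difference -1.01, SE 0.29; limma, adjusted p = 0.634). E2F1 did not overlap either, with a log2 difference of -0.20, and FOXO1 overlapped with one of 0.42, which ran from 0.14 to 0.69 with 1 library left out. GENCODE also places exons of other genes over those of APAF1, BCL6, BCL2L12, BIRC6, BNIP2, BNIP3L, BOK, FBXW7, RIPK1 and TNFRSF10A, which can share reads with them where strand was not kept.

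The genes whose pattern lay closest to each member were found among 12112 tested genes by the root mean square distance of log2(FPKM + 1) values, each gene centred on its own mean over the 4 libraries. With 4 libraries this is a description only. Closest to BCL2L1 were SIK1, CCDC74B and OLFM2, at distances of 0.057 to 0.059. SIK1 was at 37.6 and 36.7 FPKM in DOX, against 54.3 and 78.1 FPKM in noDOX libraries. Closest to BMF were OBFC2A, MAP3K14 and ZFP36L1, at 0.034 to 0.042. Among those nearest to BID were CETN2 and CDK4, and among those nearest to PMAIP1 were COMMD6 and RPLP1. MCL1 lay nearest to HMGXB4, MIOS and XRCC1, BAK1 to FUT10, ASB14 and CHKB, and BCL2L11 to KTN1, RABGGTB and TOLLIP. For BAD they were SASS6, EIF5 and C16orf95, and for BIK SLC31A1, CAPN1 and YME1L1.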

How the data were processed

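The authors deposited 1 table of FPKM for 4 libraries, for which the submitters' processing notes list Cuffdiff, Cufflinks 2.2.1, Bowtie and TopHat2 2.0.10 with hg19. The annotation, strand handling and normalization across libraries are not given in the sources read. Differences were fitted with limma 3.58.1 in R 4.3.3 on log2(FPKM + 1), over genes averaging 1 FPKM or more, with 2 group means, a mean-variance trend, two-sided p and Benjamini-Hochberg adjustment over all 12504 genes. The fit was checked on simulated data with independent noise for each gene. Such data lack the split of libraries across the groups, so the check gives no rate of false calls here. Low values of genes with 1 transcript gave the worth of 1 fragment, taken as the step that brought them closest to whole numbers. With it 79.5 to 82.0% of them lay within 0.2 of a whole number, a share that this choice itself raises. Fragments behind a value are therefore approximate and no counting interval is given. Lengths and exon overlaps came from GENCODE release 29 (96.5% of genes matched) and promoter windows from RefSeq on GRCh38.p14, matched by symbol. The members, the lists and the tests were chosen with earlier results of these data known. Genes named were all members, all other BCL2 family genes, up to 4 genes with the smallest p per other list, GATA4 and the 3 genes nearest in pattern to each member, and some genes that this rule names are not reported here. Alternatives covered pseudocount, filter, scaling, small RNA genes, moderation, a replicate block and each library left out. Shared replicate numbers do not mark a common origin in the labels, and protein sequences were not used here.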

Additional observations from a re-analysis of the deposited data

How the results depend on the processing

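No member was called under any of the 16 alternatives by limma, where 0 to 3 had an unadjusted p under 0.05 and the lowest adjusted p was 0.167. The log2 differences of BCL2L1 ran from -1.13 to -0.67 and of BMF from -1.12 to -0.59. The number of all genes called was 11 and depended on the setting, at 1 without a filter, 1 with small RNA genes left out, and 0 with the length trend removed, where 966 had an unadjusted p under 0.05. It ran from 41 to 63 with 1 library left out. The median of the members then ran from -0.25 to 0.016. Signs turned under the median-of-ratios scaling for MCL1 (0.028), BCL2L2 (0.032) and BOK (0.0059), and under equal sums for MCL1 (0.10), BCL2L2 (0.10), BAX (0.0063), BOK (0.067) and BCL2L13 (0.060). BAX also turned with the length trend removed (0.058). With 1 library left out, the log2 differences ran from -0.076 to 0.011 for MCL1, -0.78 to 0.11 for BID, -0.060 to 0.36 for BAD, -0.93 to 0.016 for PMAIP1, -0.25 to 0.20 for BCL2L2, -0.27 to 0.0085 for BAX, -0.34 to 0.24 for BOK, -0.42 to 0.030 for BNIP3, -0.73 to 0.025 for BIRC3 and -0.017 to 0.75 for BIRC6. The cause was not tested. The lone library of a group is then assumed to vary like the other group.

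With the replicate block 65 genes and 0 members were called. Deviations of libraries with the same number correlated at -0.35 over genes, and at -0.76 with small RNA genes left out, so same-numbered libraries deviated in opposite directions. A crossed replicate block, added after the data were seen together with the length trend, called 7 genes and 0 members. Depth limits BCL2, BIK and BMF most, where BIK rested on about 35 to 74 fragments a library.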
